A study of Bos taurus with 9 samples.

Results

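The genes described here are the 44 cyclins, cyclin-dependent kinases (CDKs), CDK inhibitors and members of the E2F-RB pathway that drive the cell division cycle, taken by gene symbol from a table of 21512 genes. All 44 were found. The samples were single D8 bovine blastocysts produced in vitro, of which 5 were wild type (WT) and 4 carried only frame-disrupting *TEAD4* alleles (*TEAD4* KO, genotype TEAD4-/-). Both genotypes came from oocytes of slaughterhouse ovaries, fertilised with semen of a single bull and cultured in synthetic oviduct fluid. KO alleles arose from injection of *Cas9* mRNA with an sgRNA against *TEAD4* before fertilisation, so that each KO embryo holds its own indels. WT in this study means an embryo without mutated alleles, of the control group that received *Cas9* mRNA and no sgRNA. Whole embryos were sequenced, trophectoderm and inner cell mass together, with 1 library per embryo. WT embryos are numbered WT_1 to WT_5 and KO embryos TE_1 to TE_4, and values listed embryo by embryo follow these numbers.

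The cell cycle advances as cyclins accumulate and are destroyed in turn, each switching on its CDK partner. D-type cyclins with CDK4 or CDK6 begin to inactivate RB and its relatives, cyclin E with CDK2 completes this at the entry into S phase, cyclin A acts through S phase and G2, and cyclin B with CDK1 drives mitosis. RB-family proteins hold E2F transcription factors in check, and E2Fs, bound to a DP partner, control the genes of DNA replication as well as several cyclins. Cells of the early embryo are known for short G1 phases and rapid division.

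Levels are given in TPM, a measure of transcript abundance corrected for transcript length in which every library sums to 1000000. TPM does not keep the number of reads, so the depth behind a value is unknown and no counting interval is given. The edited gene itself was between 18.0 and 54.3 TPM in WT embryos and between 12.5 and 42.8 TPM in KO embryos, overlapping ranges that say nothing about the protein. The summed level of 7 trophectoderm markers was 4019 to 17926 TPM in WT and 6586 to 12382 TPM in KO. That of 4 epiblast markers was 780.3 to 2138 TPM in WT and 1362 to 2192 TPM in KO. Without *POU5F1*, the most abundant, the epiblast sum was 6.87 to 445 TPM in WT and 10.1 to 148 TPM in KO. According to the paper, POU5F1 and CDX2 do not exclude each other in bovine embryos, so the full sum does not measure the inner cell mass alone. The 5 hypoblast markers summed to 116 to 319 TPM in WT and 105 to 230 TPM in KO. Of these 5, 1 had a higher and 4 a lower mean of log2(TPM + 1) in KO, and the hypoblast factor *GATA4* had ranges without overlap, at 1.09 to 1.75 TPM in WT and 0.367 to 0.957 TPM in KO (adjusted p = 0.684 from limma). After division by size factors, a median-of-ratios scaling of the libraries, TE_3 was above WT_3 and its ranges overlapped. The part of *GATA4* in the results below was not tested. The epiblast factor *NANOG* ranged from 0.127 TPM in WT_1 to 262 TPM in WT_4, so embryos of 1 genotype differed widely in this marker. Of 14 cumulus and granulosa markers, 7 were under 1 TPM in every library, *HAS2* and *PTX3* among them. The summed level of these 14 genes was 78.1 to 267 TPM in WT and 9.61 to 130 TPM in KO embryos. *CYP11A1*, the most abundant of them, was between 52.7 and 247 TPM in WT and between 4.57 and 96.7 TPM in KO (adjusted p = 0.566 from limma). The part of such cells in the results below was not tested. Within a whole blastocyst, fewer cells of a type and less RNA per cell cannot be told apart.

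The embryos expressed the cell cycle machinery at widely different levels. Means over the 9 libraries exceeded 100 TPM for 8 of the 44 genes and 10 TPM for 27, and were under 1 TPM for 6. The highest were *CCNG1* (423 TPM), *CCNB1* (273 TPM), *TFDP2* (165 TPM), *CCNA2* (132 TPM) and *CDK4* (125 TPM). At the other end stood *CDKN2C* (0.642 TPM), *RB1* (0.428 TPM) and *E2F2* (0.0868 TPM). Above 0 TPM in every library were 41 genes, the exceptions being *CCND1* in TE_4, *CDKN2C* in TE_1 and *E2F2* in WT_1.

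**Figure D1:**
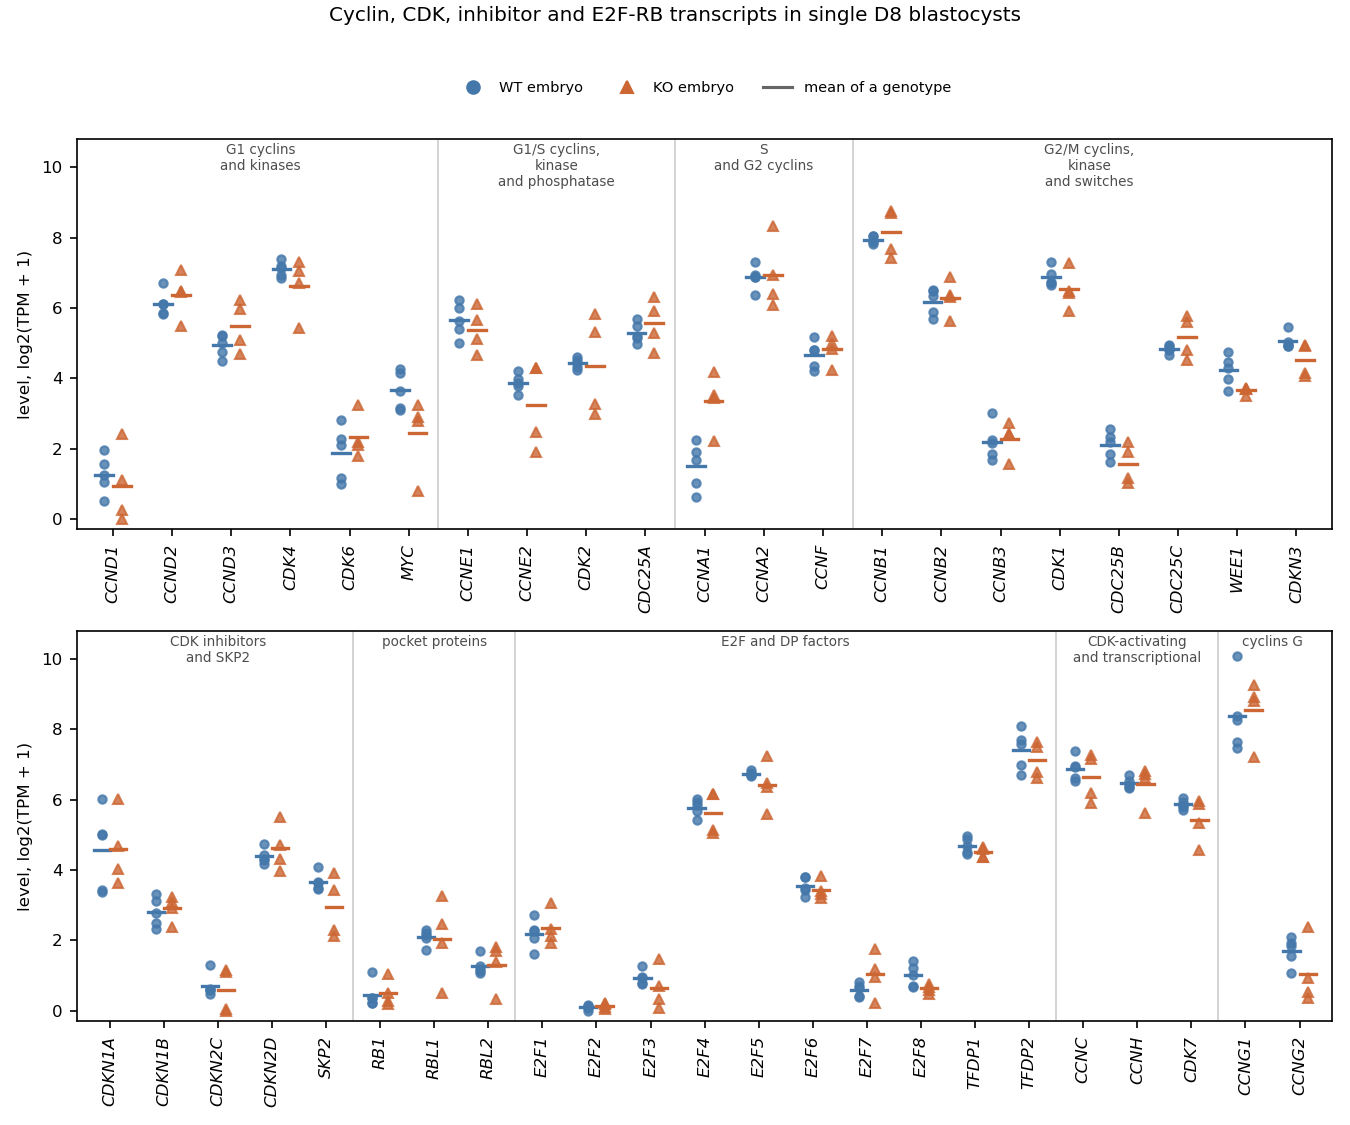
Level of each of the 44 genes in each embryo, as log2(TPM + 1), for 5 WT (circles) and 4 KO embryos (triangles), with the mean of each genotype as a short line, ordered by role. The 2 genotypes overlap in every gene, and CCNA1 shows the widest gap between the means.

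No cyclin, CDK, inhibitor or E2F-RB gene passed the test between genotypes run here. The paper's DESeq2 test on counts, which was not repeated, lists *CCNA1* among the genes upregulated in KO. The comparison here used limma, which fits a linear model to log2(TPM + 1) of all 14599 genes with a median above 0.1 TPM. Benjamini-Hochberg adjustment was made over all of these genes. It took in 43 of the 44 genes, all but *E2F2*. Of these 43, 0 had an adjusted p under 0.05, against 3 of all genes tested (0.0205%; 0.0137% higher and 0.00685% lower in KO). At an unadjusted p under 0.05 stood 2 of them, *CCNA1* (higher in KO) and *MYC* (lower), which is 4.65% of the 43 beside a background of 5.90% over all genes (2.07% higher and 3.83% lower in KO). In no gene did the 2 genotypes fail to overlap, whereas 2.03% of all genes tested had separate ranges (0.801% with KO higher and 1.23% with KO lower). The log2 fold change, KO minus WT, was above 0 for 19 of the 43 genes (44.2%) and for 44.2% of all genes. Its median was −0.063 over the 43 genes and −0.046 over all genes tested. The number at an unadjusted p under 0.05 was 7 without TE_2 (8.42% of all genes then), 5 without TE_3 (7.34%), 4 without TE_1 (6.66%), 3 without WT_2 (4.72%) and 1 without WT_4 (5.65%) or WT_5 (3.99%). The median was −0.32 without TE_2 and 0.059 without TE_1, while that of all genes moved to −0.12 and 0.038.

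**Figure D2:**
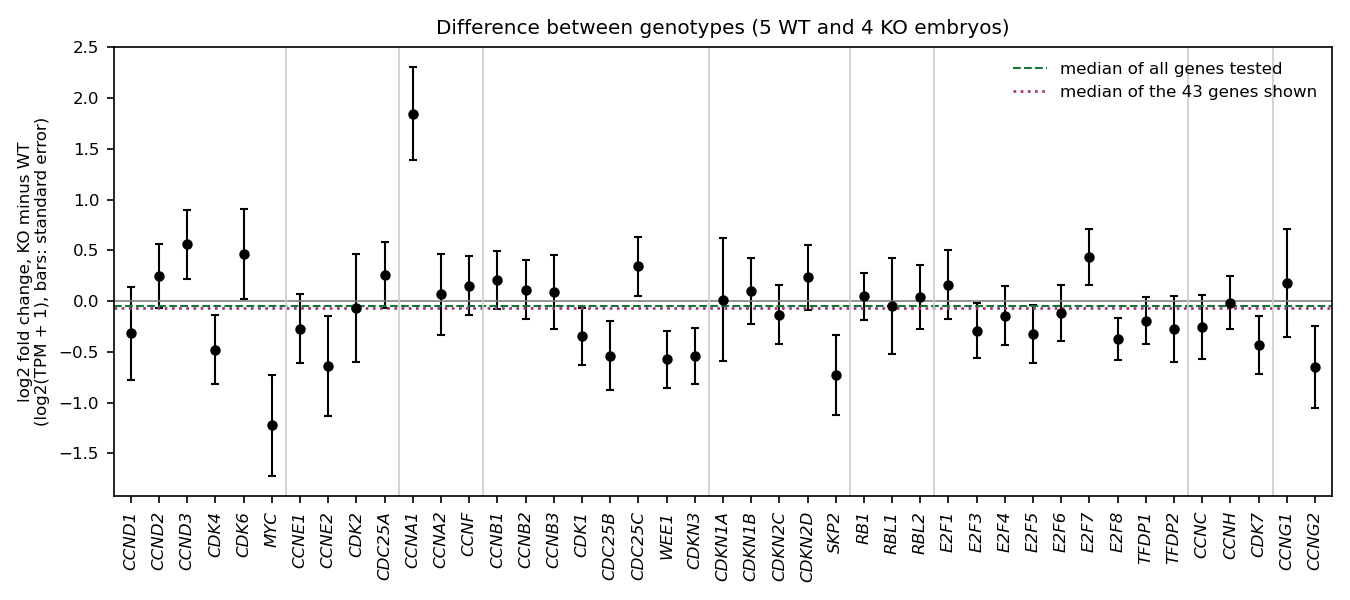
Log2 fold change (KO minus WT, on log2(TPM + 1)) of the 43 genes tested, with its standard error from limma, in 5 WT and 4 KO embryos. The dashed line is the median of all genes tested (−0.046) and the dotted line that of the 43 genes (−0.063), and CCNA1 at 1.85 and MYC at −1.22 are farthest from them.

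In G1, cyclin D2 and CDK4 were the main transcripts of their kind. *CCND2* was at 103, 68.4, 68.3, 57.5 and 56.1 TPM in WT and at 86.7, 43.8, 88.6 and 134 TPM in KO. *CDK4* was at 121, 167, 139, 147 and 115 TPM in WT and at 132, 103, 42.3 and 157 TPM in KO. The KO embryos thus spread beyond the WT embryos on both sides for *CCND2*, and TE_3 held the lowest *CDK4* of all embryos. In TPM, *CCND2* made up 63.2 to 74.6% of the 3 D-type cyclins in WT embryos and 68.3 to 75.4% in TE_1, TE_3 and TE_4, but 36.7% in TE_2, where *CCND3* (74.5 TPM) was the most abundant. *CCND3* was between 21.3 and 36.8 TPM in WT and reached 62.1 TPM in TE_4. *CCND1* stayed between 0 and 4.32 TPM in all embryos. *CDK4* accounted for 96.1 to 99.3% of the summed TPM of *CDK4* and *CDK6* in WT and for 83.4 to 98.2% in KO, the low value being TE_3, in which *CDK6* was at 8.44 TPM. The other embryos had between 1.00 and 5.98 TPM of *CDK6*.

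*MYC*, a transcription factor that promotes growth and entry into the cycle, was at 11.4, 7.51, 7.88, 18.3 and 16.6 TPM in WT and at 5.93, 6.51, 8.45 and 0.738 TPM in KO. TE_3 alone among KO embryos lay above the lowest WT embryos, WT_2 and WT_3. WT embryos averaged 12.3 ± 4.95 TPM (SD, n = 5) and KO embryos 5.41 ± 3.29 TPM (SD, n = 4). On the log2 scale limma gave a fold change of −1.22 with a standard error of 0.50 and an adjusted p of 0.784. Without TE_4, the embryo with the lowest value, the log2 fold change was −0.68. It was −1.49 without TE_3, when the ranges no longer overlapped.

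At the G1/S transition, cyclin E1 exceeded cyclin E2 and neither separated the genotypes. *CCNE1* was at 31.2, 41.3, 63.6, 74.3 and 48.9 TPM in WT and at 24.4, 49.5, 34.0 and 67.7 TPM in KO. *CDC25A*, the phosphatase that activates CDK2 at this step, was at 51.0, 30.4, 35.8, 34.7 and 43.7 TPM in WT and at 38.3, 79.1, 25.2 and 59.4 TPM in KO. TE_2 and TE_4 were above every WT embryo for *CDC25A*, and TE_3 below. *CCNE1* supplied 63.8 to 87.6% of the summed TPM of the cyclin E genes in WT and 72.6 to 89.9% in KO.

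*CDK2* and *CCNE2* showed the KO embryos on both sides of a narrow WT range; they were singled out after their values were seen. *CDK2*, the kinase partner of cyclins E and A, was at 17.9, 19.0, 22, 23.4 and 20.5 TPM in WT, and at 6.94, 56.3, 8.68 and 39.3 TPM in KO. *CCNE2* was at 17.7, 14.9, 12.9, 10.5 and 13.6 TPM in WT, and at 2.75, 18.7, 4.52 and 18.7 TPM in KO. For each of these genes TE_1 and TE_3 were below and TE_2 and TE_4 above all WT embryos. After division by size factors this still held for *CDK2*, but TE_2 was then within the WT range for *CCNE2*. The SD of log2(TPM + 1) of *CDK2* was 0.15 between WT and 1.44 between KO embryos, with means of 20.5 and 27.8 TPM.

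Cyclin A1, but not cyclin A2, was higher in most KO embryos than in any WT embryo. Cyclin A2 is the form of dividing somatic cells, whereas cyclin A1 is best known from the germ line. *CCNA1* was at 1.02, 0.554, 2.77, 3.77 and 2.18 TPM in WT and at 9.78, 10.6, 3.68 and 17.2 TPM in KO. TE_1, TE_2 and TE_4 were above all WT embryos for *CCNA1*, and TE_3 was just below WT_4. The mean was 2.06 TPM in WT and 10.3 TPM in KO, a ratio of 5.01. The log2 fold change of 1.85 exceeded its standard error of 0.46, but its adjusted p from limma was 0.415, between 0.156 (without TE_3) and 0.807 (without WT_2) when single embryos were left out. The study called *CCNA1* upregulated in KO by DESeq2 on counts of these same libraries. The difference of *CCNA1* here, and the tests that rest on it, are therefore not independent evidence. After division by size factors (the median-of-ratios scaling), TE_3 was at 3.81 TPM and WT_4 at 3.77 TPM, so that the ranges no longer overlapped. *CCNA1* was then the only one of the 43 genes of which this held. The share of all genes without overlap was not counted after this scaling, and was 2.03% before it.

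*CCNA2* was far more abundant, at 82.6, 117, 121, 157 and 117 TPM in WT and at 83.7, 323, 67.1 and 122 TPM in KO. Apart from TE_2, which held more than any other embryo, and TE_3, which held less, KO embryos were within the WT range. Its log2 fold change was 0.068 with a standard error of 0.40 and an adjusted p of 0.994 from limma. It was −0.40 without TE_2, −0.055 without WT_1 and 0.35 without TE_3. In TPM, *CCNA1* made up 1.22, 0.472, 2.24, 2.35 and 1.83% of the 2 A-type cyclins in WT, and 10.5, 3.19, 5.20 and 12.3% in KO. The lowest KO share exceeded the highest WT share, and the share averaged 1.62% for WT (SD 0.781, n = 5) and 7.80% for KO (SD 4.31, n = 4). As a difference within an embryo, log2(TPM + 1) of *CCNA1* minus that of *CCNA2* averaged −5.38 for WT (SD 0.505, n = 5) and −3.60 for KO (SD 0.932, n = 4). The genotypes differed by 1.78 (two-sided exact permutation test, 126 splits, p = 0.0159, the smallest this design can give), in the same direction for 4 of 4 KO embryos against all WT embryos.

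This separation was not particular to *CCNA2* as the gene set beside *CCNA1*. Of the other 14598 genes tested, 42.5% (6210) gave ranges without overlap, KO higher, when subtracted from *CCNA1* in the same way, as did 27 of the 42 other genes of the cycle tested and 8 of the 14 other cyclins. Markers of germ cells, in which cyclin A1 is known, had overlapping ranges in WT and KO, as *CCNA1* itself had in TPM. Of 12 markers of spermatozoa and male germ cells, 4 were under 1 TPM in every library, *ODF1* at 0 in all of them. Of the 8 tested, 5 had a higher and 3 a lower mean of log2(TPM + 1) in KO. The 1 gene of these at an unadjusted p under 0.05, beside 2.07% of all genes in this direction, was *TNP2*, which encodes a transition protein of spermatids. *TNP2* was between 0.485 and 5.24 TPM in WT and at 11.3, 2.96, 18.5 and 13.7 TPM in KO. TE_1, TE_3 and TE_4 were above all WT embryos and TE_2 was not. Its log2 fold change was 1.69, with an adjusted p of 0.624 from limma. Leaving out *SYCP3*, the most abundant, the summed level of the 12 markers was 8.87 to 130 TPM in WT and 23.0 to 117 TPM in KO. The 9 oocyte markers summed to 32.7 to 68.9 TPM in WT and 22.6 to 111 TPM in KO. Their part in the *CCNA1* difference was not tested.

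**Figure D3:**
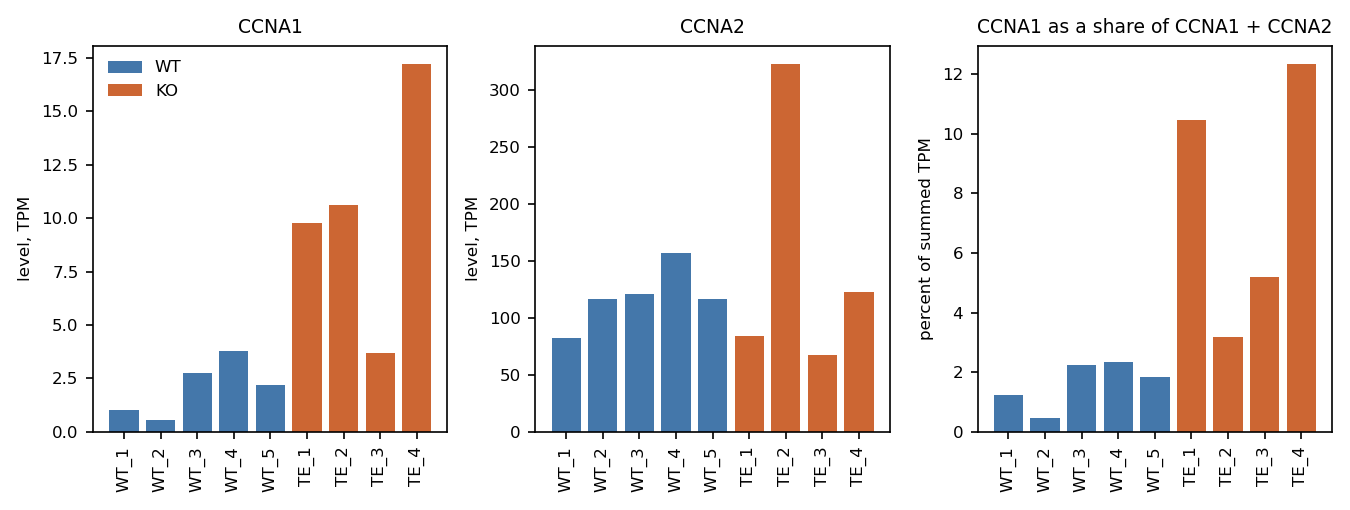
Level of CCNA1 and CCNA2 in TPM and the share of CCNA1 in their sum, in percent, for each WT (blue) and KO (orange) embryo. CCNA1 shares lie between 0.472 and 2.35% in WT and between 3.19 and 12.3% in KO, while CCNA2 stands out only in TE_2, at 323 TPM.

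*CCNF*, which encodes the substrate-binding subunit of a ubiquitin ligase that acts in S phase and G2, was at 17.6, 34.8, 27.1, 19.5 and 27.0 TPM in WT and at 27.7, 36.2, 18.0 and 31.0 TPM in KO, with overlapping ranges.

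Among the genes of the G2/M transition, *CCNB1* was the most abundant. It was at 266, 236, 223, 265 and 238 TPM in WT, and at 205, 436, 172 and 419 TPM in KO. As for *CDK2*, TE_1 and TE_3 were below and TE_2 and TE_4 above all WT embryos, and the log2 scale SD was 0.11 in WT and 0.69 in KO. After division by size factors TE_1 was within the WT range for *CCNB1*, whereas *CDK2* kept this pattern. *CDK1*, the mitotic kinase, was at 159, 100.2, 105, 124 and 106 TPM in WT and at 59.1, 155, 85.9 and 89.4 TPM in KO. TE_1, TE_3 and TE_4 were below every WT embryo for *CDK1*, and TE_2 was within the WT range.

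Within the cyclin B genes *CCNB1* supplied 72.0 to 81.7% of the summed TPM in WT and 67.6 to 82.9% in KO. *CCNB2* was between 48.4 and 117 TPM in all embryos, and *CCNB3*, known from meiosis, stayed between 1.96 and 7.07 TPM. Of the CDC25 phosphatases, which remove the inhibitory phosphates from CDKs, *CDC25A* (51.0 to 61.9% in WT, 51.8 to 61.1% in KO) and *CDC25C* (34.5 to 45.6% and 36.8 to 47.1%) made up nearly all of the TPM. *CDC25B* was between 2.06 and 4.93 TPM in WT and between 1.03 and 3.57 TPM in KO, and *CDC25C* between 24.4 and 30.1 TPM and between 22.2 and 54.0 TPM. *WEE1*, the kinase that places such a phosphate on CDK1, was between 11.5 and 26.1 TPM in WT and between 10.3 and 12.2 TPM in KO. TE_1 was below all WT embryos and the other KO embryos were above WT_2 alone, so that the ranges did not overlap without WT_2. After division by size factors TE_1 was above WT_2 for *WEE1*. *CDKN3*, a phosphatase acting on CDKs, was between 29.2 and 43.1 TPM in WT and between 15.8 and 29.9 TPM in KO.

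**Figure D4:**
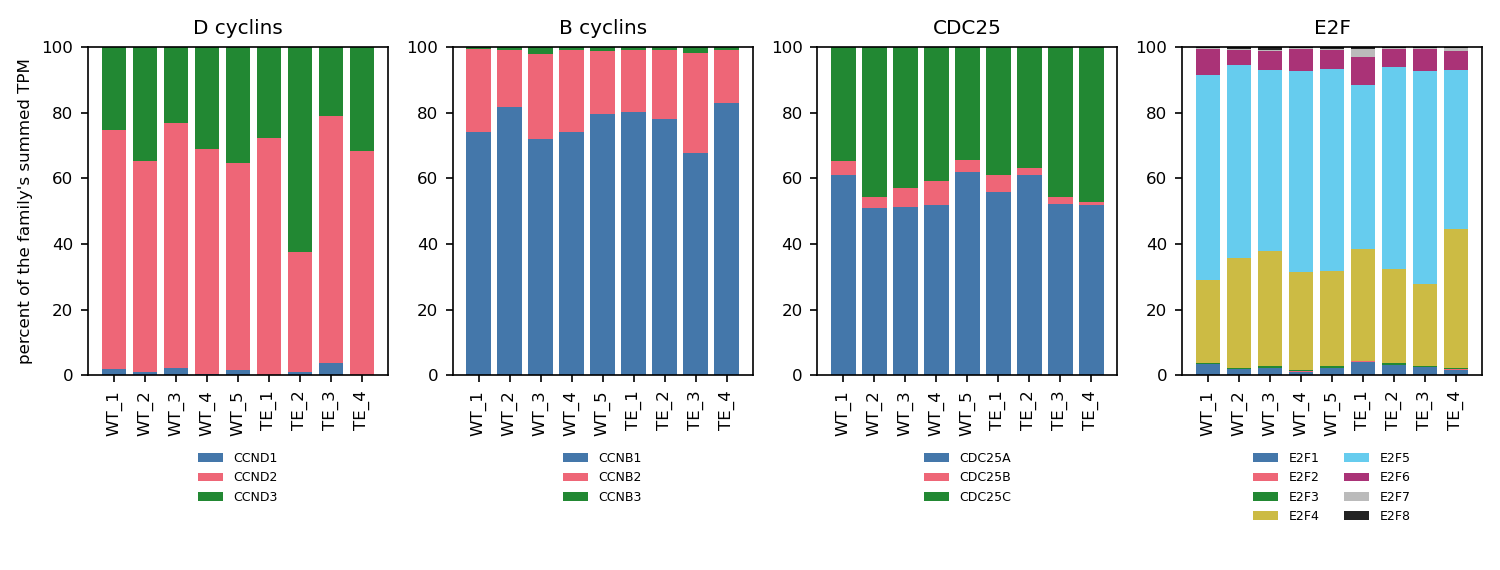
Share of each gene in the summed TPM of its family, in percent, for the D-type cyclins, B-type cyclins, CDC25 phosphatases and E2F factors in each of the 9 embryos. CCND2 is the largest D-type share in all embryos except TE_2 (36.7%), and E2F4 with E2F5 make up 84.1 to 92.1% of the E2F total.

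CDK inhibitors were led by *CDKN1A*, the p53 target that encodes p21, and *CDKN2D*, which encodes a CDK4 and CDK6 inhibitor of the INK4 family. *CDKN1A* was at 64.2, 9.38, 31.1, 31.5 and 9.81 TPM in WT and at 11.5, 15.2, 64.2 and 24.5 TPM in KO. WT_1 and TE_3 held the most, and the mean was 29.2 TPM in WT and 28.8 TPM in KO. *CDKN2D* was at 18.3, 18.8, 25.9, 20.6 and 17.1 TPM in WT and at 14.8, 25, 44.6 and 18.7 TPM in KO, again highest in TE_3. *CDKN1B*, which encodes p27, was between 4.0 and 8.88 TPM in all embryos, and *CDKN2C*, another INK4 gene, between 0 and 1.45 TPM. *SKP2*, the ubiquitin ligase subunit that marks p27 for destruction, was between 10.1 and 16.0 TPM in WT. In KO it was at 3.87, 9.83, 3.34 and 14.0 TPM, so that TE_1, TE_2 and TE_3 lay below all WT embryos and TE_4 did not.

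The pocket proteins, RB and its relatives p107 (*RBL1*) and p130 (*RBL2*), were scarce as transcripts. *RBL1* was at 3.16, 3.61, 2.29, 3.42 and 3.94 TPM in WT and at 0.406, 8.62, 2.83 and 4.52 TPM in KO. *RBL2* was at 2.23, 1.19, 1.39, 1.11 and 1.27 TPM in WT and at 0.259, 2.26, 1.62 and 2.48 TPM in KO. TE_1 was the lowest of all embryos for each of these genes. *RB1* itself was between 0.167 and 1.14 TPM in WT and between 0.130 and 1.05 TPM in KO. The summed TPM of *RB1*, *RBL1* and *RBL2* was 3.97 to 6.53 in WT, 0.874 in TE_1 and 11.0 in TE_2.

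Among E2F factors the transcripts of *E2F4* and *E2F5*, which act with pocket proteins as repressors, prevailed over those of the activators *E2F1*, *E2F2* and *E2F3*. In TPM, *E2F4* and *E2F5* together made up 87.7 to 92.1% of the 8 E2F genes in WT and 84.1 to 91.0% in KO, and the 3 activators 1.64 to 3.81% and 2.15 to 4.31%. *E2F5* was at 103, 106, 101, 115 and 107 TPM in WT and at 47.6, 151, 88.1 and 81.0 TPM in KO. All 4 KO embryos were outside this narrow WT range, TE_2 above it and the others below, and *E2F5* had no overlap when TE_2 was left out. After division by size factors TE_3 was within the WT range for *E2F5*. *E2F4* was between 41.6 and 63.5 TPM in WT and at 32.5, 70.5, 34.2 and 71.1 TPM in KO. *E2F1* was between 2.06 and 5.59 TPM in WT and between 2.81 and 7.30 TPM in KO. *E2F3* was between 0.683 and 1.41 TPM in WT, and every KO embryo was outside this range, TE_2 above at 1.76 TPM and the others below at 0.0542 to 0.639 TPM. *E2F6*, a repressor that acts without pocket proteins, was between 8.19 and 13.3 TPM in all embryos. *E2F7* and *E2F8*, atypical E2Fs that repress, averaged 0.523 and 1.05 TPM in WT and 1.20 and 0.552 TPM in KO. Of the DP partners, *TFDP2* was at 274, 206, 103, 126 and 189 TPM in WT and at 98.2, 199, 110 and 179 TPM in KO. *TFDP1* was between 19.6 and 30.3 TPM in all embryos.

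Of the kinase that activates other CDKs, cyclin H and *CDK7* were measured, and cyclin C serves the Mediator complex of transcription. *CCNC* was at 125, 91.2, 122, 165 and 98.1 TPM in WT and at 59.1, 143, 72.8 and 153 TPM in KO. *CCNH* was at 103, 84.9, 91.1, 79.1 and 80.9 TPM in WT and at 48.7, 96.8, 112 and 105 TPM in KO. *CDK7* was between 51.2 and 65.3 TPM in WT and at 23.0, 61.2, 39.1 and 57.4 TPM in KO. TE_1 held the lowest level of each of these genes.

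Of the G-type cyclins, *CCNG1* was abundant and *CCNG2* scarce. *CCNG1*, a target of p53, was at 1094, 335, 201, 308 and 176 TPM in WT and at 147, 449, 486 and 614 TPM in KO. WT_1 stood far above all other embryos, and the mean was 423 TPM in WT and 424 TPM in KO. *CCNG2*, a cyclin of cells that leave the cycle, was at 1.10, 2.57, 1.94, 3.28 and 2.77 TPM in WT and at 0.290, 4.16, 0.888 and 0.453 TPM in KO. TE_2 was above and the other KO embryos below all WT embryos for *CCNG2*. Other p53 targets, named after their values were seen, were also high in WT_1: *MDM2* was at 299 TPM there and between 22.1 and 36.9 TPM in the other WT embryos, and *PHLDA3* at 902 TPM against 127 to 205 TPM. In KO embryos *PHLDA3* was highest in TE_3 (927 TPM) and *MDM2* in TE_4 (150 TPM).

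KO embryos varied more among themselves than WT embryos. The SD of log2(TPM + 1) was larger between KO than between WT embryos for 34 of the 43 genes (79.1%), beside 70.1% of all genes tested, and its median over the 43 genes was 0.63 in KO and 0.32 in WT (0.52 and 0.35 over all genes). The 34 became 31 without TE_1 and 37 without WT_1, the extremes with an embryo left out, when all genes gave 63.9 to 74.6%. Under other settings it was 30 to 35, where the filter also changed how many of these genes were tested. In 8 of the 43 (18.6%) every KO embryo was outside the WT range, some above and some below, which held for 7.66% of all genes. These were *CCNE2*, *CDK2*, *CCNB1*, *E2F3*, *E2F4*, *E2F5*, *E2F7* and *CCNG2*. TE_2 was above the WT range in all 8 and TE_3 below it in all 8, while TE_1 was below it in 7, all but *E2F7*. The number was 7 after scaling by size factors (6.08% of all genes) and 13 without WT_1 (13.5% of all genes). The 7 after scaling were not simply 7 of the 8 named. *CCNE2*, *CCNB1*, *E2F4* and *E2F5* then had a KO embryo within the WT range, and other genes entered the count. These counts were chosen after the values were seen and are given as a description.

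The spread followed single embryos. TE_1 held the lowest value of the 9 embryos in 21 of the 43 genes and TE_2 the highest in 14, against 28.0% and 23.3% of all genes tested. TE_1 was below the WT range in 27 genes and TE_3 in 18, while TE_2 was above it in 19 and TE_4 in 13. After scaling by size factors these counts were 14 for TE_1, 17 for TE_3, 14 for TE_2 and 13 for TE_4, so that TE_3 was then the embryo most often below. No such count by embryo was made over all genes, so these counts have no background and describe the embryos only. The size factors of the libraries were between 0.973 and 1.12 in WT, but 0.776 in TE_1 and 1.26 in TE_2. After division by them TE_1 held the lowest value in 11 genes and TE_2 the highest in 9 (16.2% and 11.4% of all genes). The median distance of the 43 genes from the WT mean was −0.62 in TE_1, 0.36 in TE_2, −0.32 in TE_3 and 0.20 in TE_4 on the log2 scale, and −0.30, 0.11, −0.27 and 0.18 after scaling. Over all genes the unscaled distances were −0.30 in TE_1, 0.19 in TE_2, −0.079 in TE_3 and −0.012 in TE_4. The scaled ones were between −0.031 and −0.0030. Size factors are built to make these scaled distances small, so they are no independent background. The 4 genes of the G1/S transition had medians of −1.21 in TE_1, −0.87 in TE_3, 0.72 in TE_2 and 0.53 in TE_4, and −0.82, −0.77, 0.45 and 0.51 after scaling. The part of library scaling in the unscaled values was not tested beyond this.

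**Figure D5:**
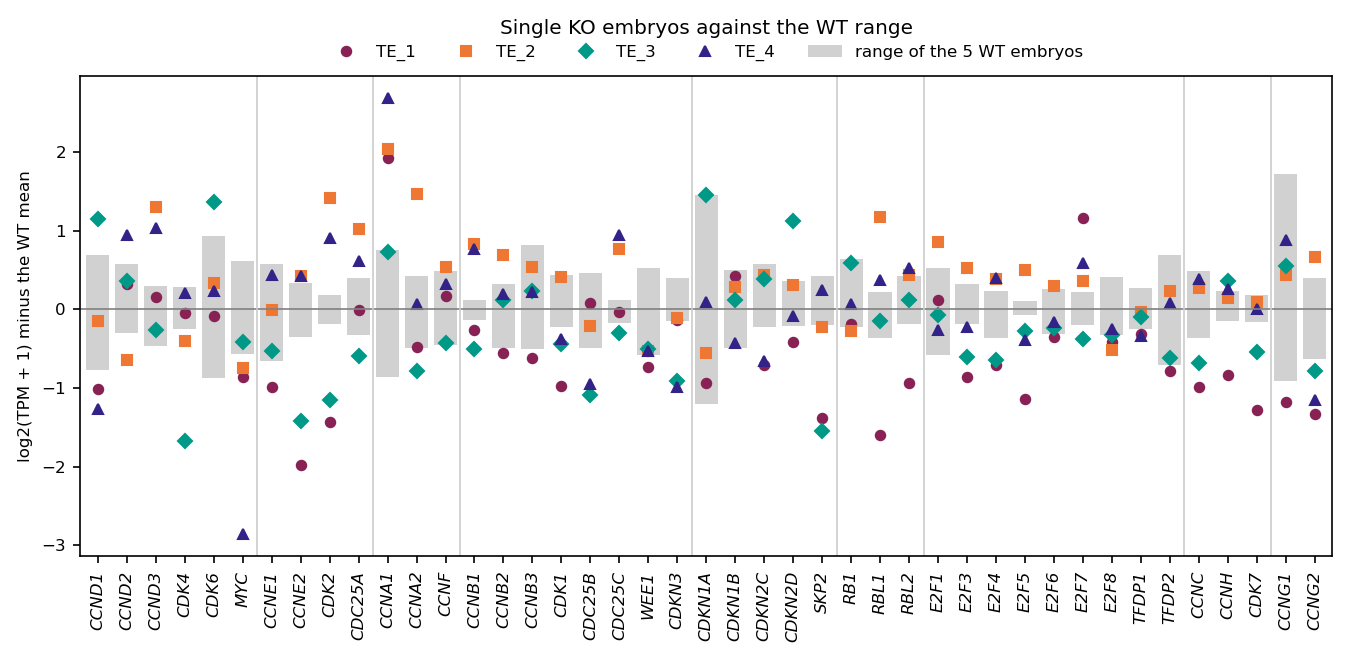
Distance of each KO embryo from the WT mean on the log2(TPM + 1) scale for the 43 genes tested, with the range of the 5 WT embryos as a grey bar. TE_1 and TE_3 lie below and TE_2 and TE_4 above the bar for CDK2, CCNE2, CCNB1 and E2F4, whereas TE_1, TE_2 and TE_4 are above it for CCNA1. The values are not scaled by size factors. After such scaling CDK2 kept this pattern, and CCNE2, CCNB1 and E2F4 did not.

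The other genes of the pathway were read from 5 lists of genes that act under or around these regulators, and 0 of their 81 members had an adjusted p under 0.05 from limma or ranges without overlap, beside 0.0205% and 2.03% of all genes. At an unadjusted p under 0.05 stood 0 of them as well, beside 5.90% of all genes. Of 25 S phase genes controlled by E2F, such as the MCM helicase subunits and *PCNA*, 12 had a higher and 13 a lower mean in KO, with a median log2 fold change of −0.0057. Of 20 mitotic genes, such as *PLK1* and *AURKA*, 9 were higher and 11 lower (median −0.047). The 15 regulators of CDK activity and cyclin degradation gave 7 and 8 (median −0.018). The 7 genes of the MuvB complex with *MYBL2* and *FOXM1* gave 2 and 5 (median −0.23). The 14 checkpoint and p53 genes gave 11 and 3 (median 0.21, and 0.054 without TE_4 and 0.46 without TE_1). The medians of S phase genes (−0.20 without TE_4 and 0.20 without TE_1) and mitotic genes (−0.27 without TE_2 and 0.21 without TE_1) changed direction with single embryos. The SD was larger in KO for 23 of the 25 S phase genes and 19 of the 20 mitotic genes, beside 70.1% of all genes, and every KO embryo was outside the WT range, on both sides, for 8 and 4 of them, beside 7.66% of all genes. These 2 counts were 11 and 3 for the 15 regulators, 8 and 2 for the 14 checkpoint and p53 genes, and 5 and 0 for the 7 MuvB genes. They were not repeated after scaling by size factors. The S phase genes of this kind were *MCM3*, *MCM4*, *MCM5*, *MCM6*, *MCM7*, *RRM1*, *CDC6* and *FEN1*.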

How the data were processed

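The authors prepared 1 library per D8 blastocyst (5 WT, 4 *TEAD4* KO), pseudoaligned the reads after quality control and deposited TPM values for 21512 genes. The submitters' processing notes name FastQC, fastp and kallisto without versions; the annotation and genome build are not given in the sources used here. The labels describe another extraction, library kit and sequencer than the paper's methods. Columns were assigned to a genotype by name, and 0 columns were left out. Since TPM values are not counts, the authors' count test was not repeated.

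On log2(TPM + 1), limma 3.58.1 (lmFit and eBayes with trend, R 4.3.3) was fitted to genes with a median above 0.1 TPM, with Benjamini-Hochberg adjustment. This scale understates fold changes of low genes. Single values were compared by exact permutation over embryos. Scripts were tested on simulated data. Python 3.11.15, numpy 2.4.6, pandas 2.3.3, scipy 1.17.1 and matplotlib 3.10.9 were used. Other settings tried were 0.1 TPM as pseudocount, no filter or a median above 1 TPM, quantile normalization, size factors by median of ratios, eBayes without trend or robust, array weights, and leaving out each embryo. The counts of spread and direction over the members were added after seeing the data.

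The members and lists were chosen with earlier results of these data known. Values in every embryo are given for *CCNA1*, *CCNA2*, members without overlap or with an unadjusted p under 0.05, and the 2 most abundant members of each role. From the other lists only genes without overlap or with an adjusted p under 0.05 were to be named; genes named beyond this were chosen after their values were seen, as were examples of what a list holds.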

Additional observations from a re-analysis of the deposited data

Results flagged for a closer look

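Dixon's rule was applied to 90 sets of values, each gene in each genotype and the within-embryo difference of the A-type cyclins. In 10 of them an embryo had a gap to its nearest neighbour above the 95% critical value. The rate of about 1 in 20 by chance holds for independent normal values. All but the difference were unlogged TPM values, and the sets share the same embryos, so the 10 are not read as an excess. WT_1 was the highest WT embryo by such a gap for *CCNG1* (1094 TPM), *CCND2* (103 TPM), *RBL2* (2.23 TPM) and *RB1* (1.14 TPM). WT_4 was the highest for *SKP2* (16.0 TPM) and *CDKN2C* (1.45 TPM), and WT_2 for *CDKN3* (43.1 TPM). WT_2 was the lowest WT embryo in the difference of *CCNA1* minus *CCNA2* on the log2 scale (−6.24), on the far side from the KO embryos. Among KO embryos, TE_1 was the lowest for *WEE1* (10.3 TPM, with the others at 12 to 12.2 TPM) and TE_2 the highest for *CCNG2* (4.16 TPM). After division by size factors TE_1 was instead the highest KO embryo for *WEE1*.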

How the results depend on the processing

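No gene of the 43 had an adjusted p under 0.05 in any fit run. The number of genes called among all tested was 3; it was 8 at 0.1 TPM as pseudocount or at a median above 1 TPM, 5 on scaling by size factors or with eBayes without trend, 6 after quantile normalization or with robust eBayes, and 0 to 10 when single embryos were left out (10 without TE_3, 0 without WT_3, WT_4, TE_1, TE_2 or TE_4, 1 without WT_5, and 2 without WT_1 or WT_2). The number of the 43 at an unadjusted p under 0.05 was 1 to 7 on leaving out single embryos (3.99 to 8.42% of all genes) and that without overlap 0 to 4 (2.36 to 5.66% of all genes). The latter was 1 (*CCNA1*) with size factors, for which the share of all genes was not counted. The difference of *CCNA1* minus *CCNA2* stayed between 1.50 and 2.18 with an embryo left out. Of 339 log2 fold changes of single genes under other settings, 336 kept their direction and their side of the threshold, and 3 changed direction: *RBL2* at the lower pseudocount (−0.10) and *CCNH* with size factors (0.041) and array weights (0.069). Of 387 with an embryo left out, 34 changed direction: *CDK2* (−0.56 to 0.39), *CCNA2* (−0.40 to 0.35), *CCNB2* (−0.079 to 0.34), *CCNB3* (−0.053 to 0.33), *CDKN1A* (−0.46 to 0.38), *CDKN1B* (−0.019 to 0.28), *CDKN2C* (−0.32 to 0.059), *CDKN2D* (−0.060 to 0.45), *RB1* (−0.13 to 0.21), *RBL1* (−0.46 to 0.47), *RBL2* (−0.13 to 0.36), *E2F1* (−0.070 to 0.30), *E2F4* (−0.32 to 0.047), *CCNH* (−0.14 to 0.25) and *CCNG1* (−0.060 to 0.63). The cause was not tested. Depth is unknown, so the precision of low genes such as *CCNA1* cannot be given. No paired analysis was possible because each library is a separate embryo and the titles number the embryos without repeats.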

Other observations

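Cell cycle genes outside the lists above were taken by symbol after the results were seen: 29 further cyclins, CDKs, CDK inhibitors and MYC relatives, of which 26 were tested. Of these, 15 had a higher and 11 a lower mean of log2(TPM + 1) in KO, 0 had an adjusted p under 0.05 from limma, and 4 an unadjusted p under 0.05, all lower in KO, beside 5.90% of all genes tested (3.83% lower in KO). *MYCN*, the MYC relative known from embryonic progenitor cells, was the only one of the 26 without overlap in TPM, beside 2.03% of all genes (1.23% lower in KO). It was at 27.6, 28.1, 21.3, 38.8 and 24.9 TPM in WT and at 19.6, 8.64, 11.7 and 12.3 TPM in KO. In TPM the highest KO embryo, TE_1, was below the lowest WT embryo, WT_3. After division by size factors TE_1 was above WT_3 and WT_5, so that the ranges overlapped. limma gave a log2 fold change of −1.08 with a standard error of 0.29 and an adjusted p of 0.525, the fold change being between −1.28 and −0.91 when single embryos were left out. Beside it, *MYC* had its highest KO value, 8.45 TPM, below 3 of the 5 WT embryos.

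The others at this unadjusted threshold were *CDK17* (means of 7.94 TPM for WT and 2.92 TPM for KO), *CCNY* (56.5 and 36.2 TPM) and *CCNJ* (5.93 and 2.99 TPM). *CDKN1C*, the imprinted inhibitor p57, was between 3.85 and 12.6 TPM in WT. In KO it was at 6.93 and 7.46 TPM in TE_1 and TE_3 and at 0.331 and 0.498 TPM in TE_2 and TE_4. In TPM, *CDK2*, *CCNE2* and *CCNB1* were above the WT range in TE_2 and TE_4. After division by size factors TE_2 was within the WT range for *CCNE2*. *CDKN1C* was named after its values were seen, with overlapping ranges and an adjusted p of 0.859 from limma. A link between these levels was not tested.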
